A study of Bos taurus with 6 samples.

Results

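The expression of 10 imprinted growth genes, the members described here, was followed in the longissimus dorsi muscle of 2 Chinese cattle breeds. H19, MEG3, CDKN1C and GRB10 were grouped as maternally expressed, and DLK1, PEG3, PEG10, MEST, PLAGL1 and NNAT as paternally expressed. This grouping was set in advance from what is known of mammals and was not tested in this muscle. The members were found by symbol among the 17258 genes named in the deposited transcript files, and all 10 were present. Expression of a gene was the summed FPKM (fragments per kilobase of transcript, scaled to the library's fragments) of its reference transcripts and of the unnamed assembled transcripts with 50% or more of their length on its exons, same strand. Of all named genes, 9765 reached a mean FPKM of 1 in either breed and entered the test, among them 8 members. DLK1 and PEG3 were below that level.

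The study compared muscle from 3 Shandong black cattle (B1, B2 and B3) with muscle from 3 Luxi cattle (L1, L2 and L3), all 18 months old and untreated, with 1 RNA library per animal. Luxi cattle are a local Chinese breed, and Shandong black cattle were bred from Japanese black, Luxi and Bohai black cattle, so that the second breed carries Luxi ancestry. The comparison was made to look for genes of fat deposition in beef. The breeds were obtained from different companies and fed on forage and concentrate under one management, so breed and company of origin cannot be told apart.

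Genomic imprinting is the silencing of one parental copy of a gene by methylation marks set in the egg or sperm. Imprinted genes lie in clusters controlled by shared elements, and many of them act on prenatal growth: several paternally expressed members favour growth, and several maternally expressed members restrain it. In skeletal muscle the clusters are best known from IGF2, whose regulatory variant raises muscle mass in pigs, and from the DLK1-MEG3 cluster, where the callipyge mutation causes muscle hypertrophy in sheep. The files give the sum over both parental copies, so parent of origin was not measured.

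The libraries held 14.1 to 14.6 gigabases of aligned sequence in the Shandong black animals and 17.52 to 17.99 in the Luxi animals. Skeletal muscle markers were high, with a summed FPKM of 46487 to 57106 over 10 of 10 genes in the Shandong black animals and of 24241 to 74210 in the Luxi animals. L1, the lowest of these, stood apart from the other libraries, with 175373 listed transcripts (reference and assembled) against 121048 to 161263. Within the muscle list TNNT3 had every Luxi animal above (log2 fold change 2.95, SE 0.81) and TNNT1 every Luxi animal below (-1.33, SE 0.65). The breeds overlapped in the rest of that list, and none of the 10 was called. The breeds also differed in markers of other cell types. The summed FPKM of 8 fat cell markers was 132 to 195 in Shandong black and 36.6 to 55.1 in Luxi cattle, with LEP listed at 0 in L1. Of the 7 tested, 6 had every Luxi animal below and 4 were called lower in Luxi cattle. LPL went the other way, at 17.5, 17.0 and 16.7 in Shandong black and 37.2, 23.3 and 36.2 in Luxi animals (log2 fold change 0.85, SE 0.24). The sum of 7 fibroblast markers was 161 to 200 against 392 to 508, with COL3A1 called higher in Luxi cattle. Most of that gap was in COL1A1 and COL3A1, since the other 5 summed to 123.2 to 142.0 against 142.6 to 193.8. Of these 5, PDGFRA had every Luxi animal above (log2 fold change 0.38) and DPT had every Luxi animal below (-0.39). DCN, LUM and FBN1 overlapped between the breeds (0.60, 0.26 and -0.13). The sum of 5 endothelial markers was 19.5 to 20.8 against 24.8 to 66.0, with L1 highest and none called. The part of these shifts in cell type markers in the results that follow was not tested.

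The members covered a wide range of levels, as the plot of FPKM by animal shows. H19 led in both breeds, GRB10 came next and then CDKN1C, and the ranges of the 3 animals did not touch between H19 and GRB10 or between GRB10 and CDKN1C. From CDKN1C down, the neighbours in the order overlapped in Shandong black cattle. In Luxi cattle they overlapped too, except for MEST and DLK1, whose ranges were apart. NNAT ranked 5 among the members in the Shandong black breed and 10 in the Luxi breed. H19 ranked 578 of 17258 named genes by mean FPKM over the 6 animals, GRB10 ranked 1717 and CDKN1C ranked 4656, whereas PEG3, the lowest member by that mean, ranked 12567.

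**Figure D1:**
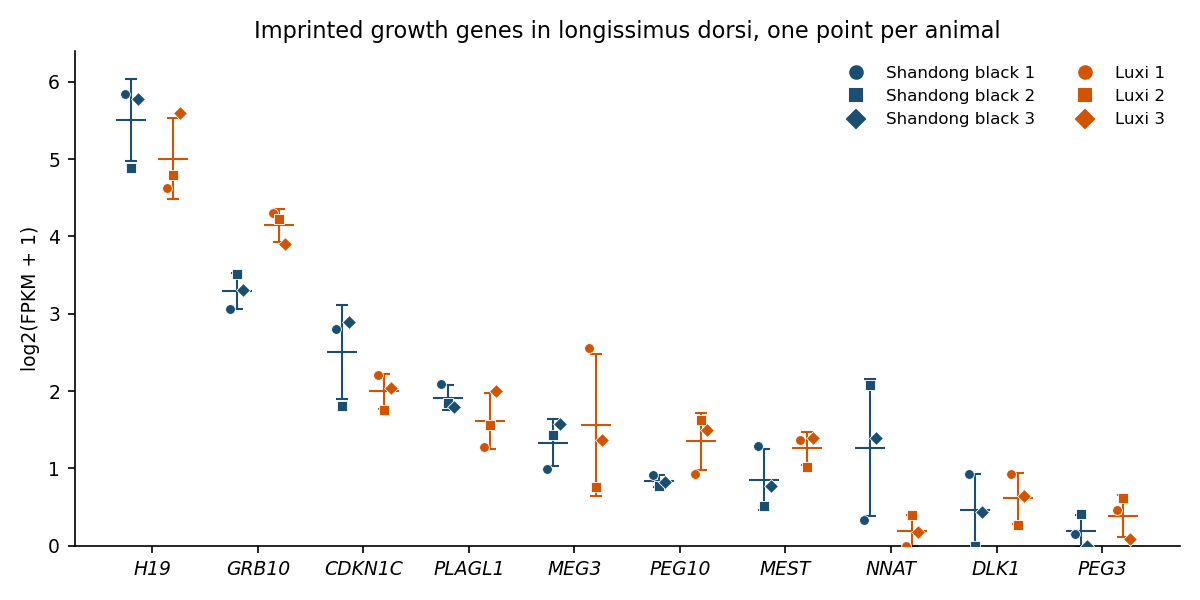
FPKM of the 10 members in each animal on the log2(FPKM + 1) scale, ordered by mean level, with Shandong black animals in blue and Luxi animals in orange; horizontal lines are means of 3 animals and bars are SD. The 3 Luxi animals lie above the 3 Shandong black animals for GRB10 and PEG10 and the breeds overlap in the other members.

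None of the 8 members tested was called different between the breeds (limma, adjusted p under 0.05 with a change of 1 or more on the log2 scale), where 2.55% of all genes tested were called, 1.56% as higher and 0.993% as lower in Luxi cattle. GRB10, NNAT and PEG10 had an unadjusted limma p under 0.05, which is 3 of 8 members against a background of 21.9% of all genes. NNAT passed the filter only through Shandong black cattle (mean FPKM 1.71, against 0.150 in Luxi cattle). PEG10 and MEST passed it only through Luxi cattle (1.61 and 1.41, against 0.788 and 0.856 in Shandong black cattle). Their differences are therefore not independent of the filter. By fitted log2 fold change, Luxi over Shandong black, 4 members were higher and 4 lower in Luxi cattle, where 62.6% of all genes were higher, with a range from -1.07 to 0.85 and a median of -0.03, and the median over all genes tested was 0.13. The breeds did not overlap in 2 of the 8, GRB10 and PEG10, both higher in Luxi cattle, where 20.0% of all genes had every Luxi animal above every Shandong black animal and 9.10% had every Luxi animal below. Split by parental copy, 2 of the 4 paternally expressed members tested and 2 of the 4 maternally expressed members were higher in Luxi cattle. Without L1, the library that stood apart, the log2 fold change was 0.77 for GRB10, 0.72 for PEG10, 0.35 for MEST, -0.13 for PLAGL1, -0.30 for H19, -0.61 for CDKN1C and -0.98 for NNAT, each in the same direction as with all 6 animals, and MEG3 turned to -0.27. All fold changes are on the log2(FPKM + 1) scale, which understates changes of low genes.

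**Figure D2:**
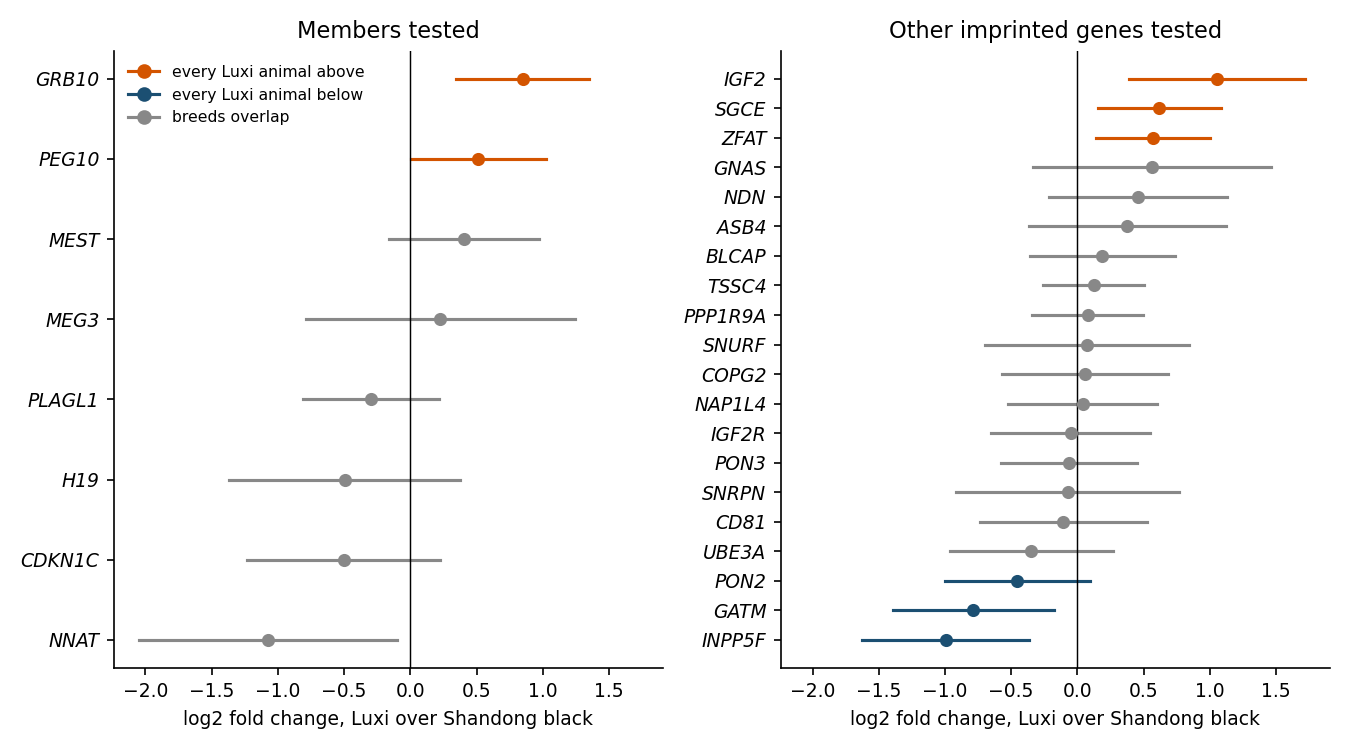
Fitted log2 fold change (Luxi over Shandong black, log2(FPKM + 1) scale) with its 95% confidence interval for the 8 members tested (left) and for the 20 other imprinted genes tested (right). GRB10 and PEG10 have every Luxi animal above every Shandong black animal (orange), and no gene in either panel passed the call.

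GRB10 encodes an adaptor protein that binds the insulin and IGF1 receptors and dampens their signalling, and loss of its maternal copy enlarges mice and their muscle. It had the highest fitted fold change of the members. Its FPKM was 7.31, 10.4 and 8.89 in B1, B2 and B3 and 18.7, 17.7 and 13.9 in L1, L2 and L3. The lowest Luxi animal lay above the highest Shandong black animal, and the breed means were 8.88 ± 1.57 and 16.8 ± 2.50 (SD, n = 3). The log2 fold change was 0.85 (SE 0.21, 95% interval 0.35 to 1.35), with an adjusted limma p of 0.0846, above the threshold. The exact two-sided permutation p was 0.1, the smallest that 3 animals against 3 can give. In bulk tissue, fewer cells of a type and less RNA per cell cannot be told apart, and this holds for every level given here.

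The GRB10 gene (chromosome 4, 5105702 to 5327928, plus strand, ARS-UCD1.2) is listed with 9 reference transcripts of 13 to 18 exons. They share most of their downstream exons and differ mainly in where they start. Of these, 7 began at the distal end of the gene, 1 began 81.9 kb further in, and 1 short form of 13 exons began 178.4 kb in. Only 30.1% of the FPKM of GRB10 was on reference transcripts. The rest was on a single assembled form of 13 exons that matched no reference transcript named in the files, found in all 6 animals. Its start lay between 5272102 and 5272111 on chromosome 4, a spread of 9 bases over the 6 animals, and 12032 to 12041 bases upstream of the start of the short reference form. Apart from its own first exon, it shared 12 exon starts with the short form and had 11 exons identical to it. The assembled form thus differed from the short form in its first exon and in where its last exon ended. It ended at 5327049, as did the reference form with the middle start, while the short form ended at 5327928.

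**Figure D3:**
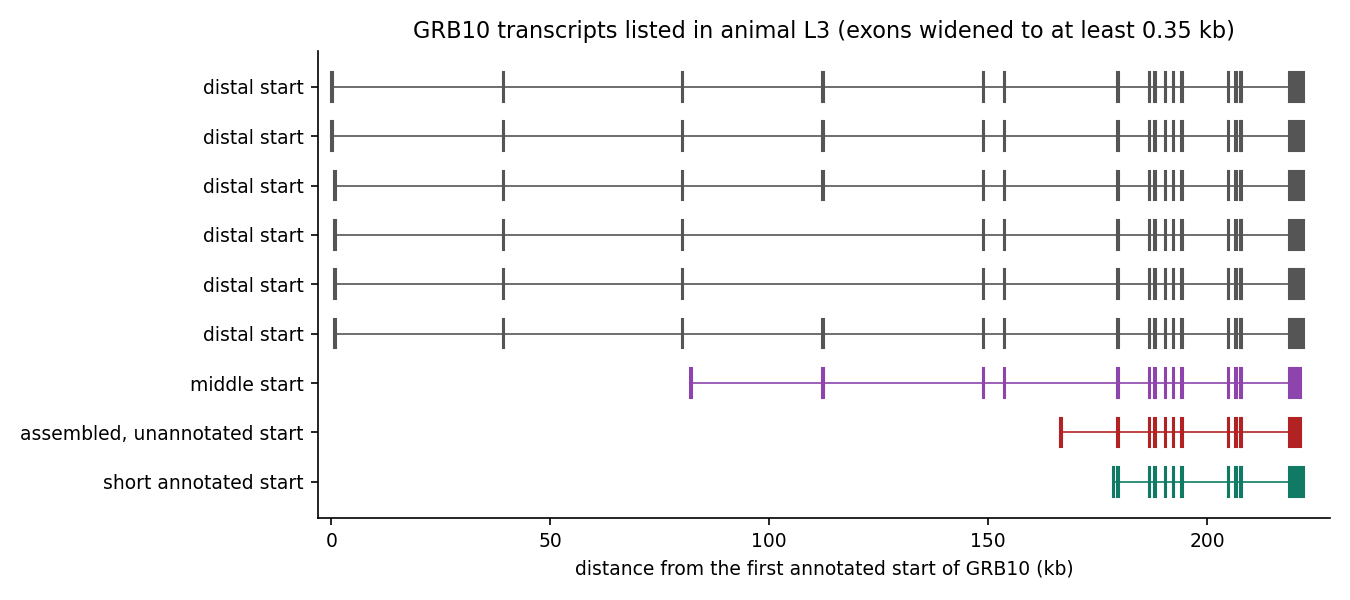
Exons (boxes) and introns (lines) of the GRB10 transcripts listed in animal L3, against distance in kb from the first annotated start, with narrow exons widened to be visible. The assembled form starts 166.4 kb from the first start and the short annotated form 178.4 kb from it, and both run through the same downstream exons.

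The start classes of GRB10 were compared between the breeds one by one, and no test compared the classes with each other. The assembled form carried most of the expression, with an FPKM of 4.10, 8.52 and 6.39 in Shandong black animals and 12.3, 14.1 and 8.39 in Luxi animals, which is 56.1% to 81.6% of the gene in the 6 animals. L3 lay just under B2, so the breeds overlapped, and the ratio of the means was 1.83 (exact permutation p = 0.2). The short annotated form had an FPKM of 0.999, 1.19 and 1.03 in Shandong black animals and 5.60, 2.95 and 4.54 in Luxi animals. Every Luxi animal was above every Shandong black animal, and the ratio of the means was 4.06 (exact permutation p = 0.1, the smallest possible). Its share of the gene was 11.4% to 13.7% in Shandong black and 16.7% to 32.6% in Luxi cattle, again without overlap.

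The distal forms overlapped between the breeds. Their FPKM was 2.19, 0.689 and 1.44 in Shandong black animals and 0.753, 0.653 and 0.948 in Luxi animals (exact permutation p = 0.3). The form with the middle start stayed below an FPKM of 0.07 in each animal, from 0.00246 to 0.0609. Because the assembler divides reads of shared exons among transcripts by a model, the first exons, which are not shared, were also compared by read coverage per aligned gigabase. Coverage of the distal first exons was 0.0689, 0.345 and 0.0444 in Shandong black and 0.487, 0.0173 and 0.149 in Luxi animals. Their ratio of means was 1.42, where that of the FPKM of the distal forms was 0.545, so the directions differed. The second exon of the distal forms had a ratio of means of 1.03. The last exon kept only in the distal and middle forms was better covered, with means of 3.655 in Shandong black and 1.796 in Luxi animals. Its ratio of means was 0.492, in the direction of the FPKM. The breeds overlapped in each of these exons. Coverage of the first exon of the short form was 0.547, 1.302 and 1.242 in Shandong black and 5.29, 3.27 and 3.80 in Luxi animals, a ratio of means of 4.002. Coverage of the first exon of the assembled form was 5.75, 12.16 and 12.02 against 18.01, 20.89 and 9.37, where L3 lay below B2 and B3. Coverage of the first exon common to all forms was 7.96, 11.6 and 11.2 against 22.1, 17.4 and 14.1, with each Luxi animal higher and a ratio of 1.74.

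**Figure D4:**
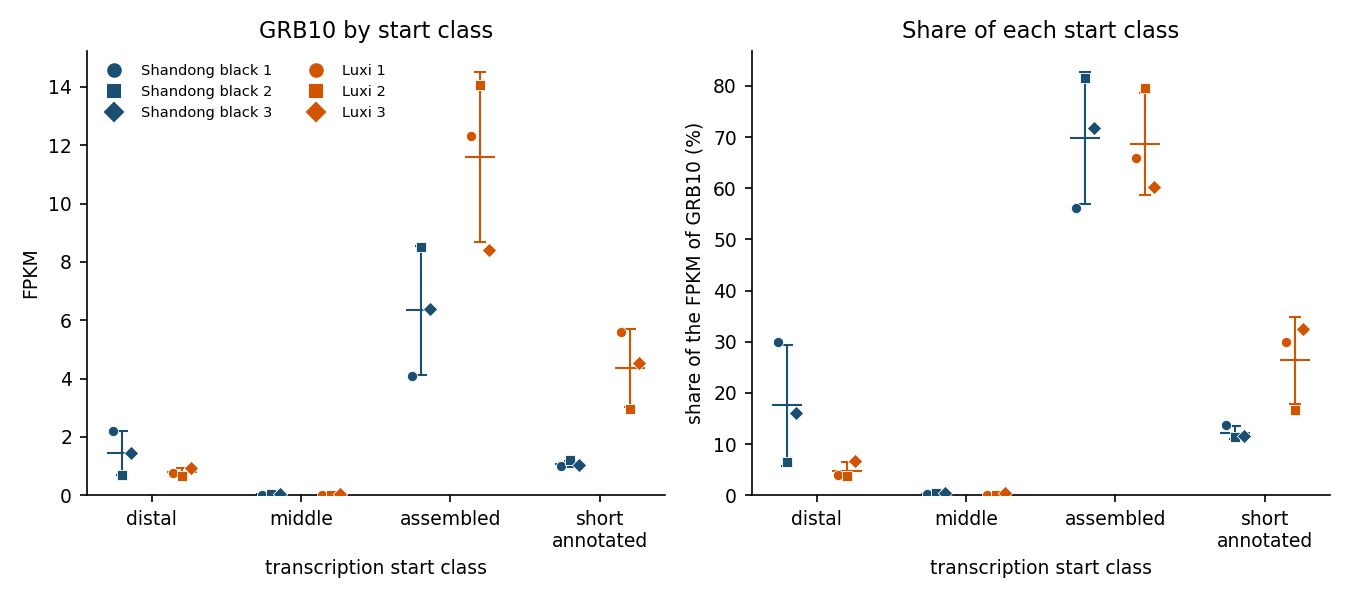
FPKM (left) and share of the FPKM of GRB10 (right) by the position of the transcript start, one point per animal, with Shandong black in blue and Luxi in orange; lines are means of 3 animals and bars are SD. The short annotated form has each Luxi animal (2.95 to 5.60) above each Shandong black animal (0.999 to 1.19), and the assembled form, the most abundant in all animals, overlaps between the breeds.

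The breeds were also apart in GRB10 when the assembled form was left out, although the division of shared reads among forms still enters that value. On reference transcripts alone the FPKM of GRB10 was 3.21, 1.92 and 2.50 in Shandong black and 6.36, 3.60 and 5.55 in Luxi animals. Among these, the short form had means of 1.07 and 4.36, and the distal forms, which overlapped, 1.44 and 0.784. The means of the assembled form were 6.34 and 11.6. Relative to INSR, the insulin receptor that the protein binds, GRB10 was at 0.662, 1.29 and 1.03 in Shandong black and at 2.62, 1.73 and 1.82 in Luxi animals, with no overlap, whereas INSR itself overlapped between the breeds (log2 fold change -0.14, SE 0.21). The ratio of GRB10 to IRS1, the docking protein downstream of the same receptor, overlapped (exact permutation p = 0.4).

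PEG10 derives from a retrotransposon and is needed for the placenta. Its FPKM was 0.891, 0.705 and 0.769 in B1, B2 and B3 and 0.909, 2.08 and 1.83 in L1, L2 and L3. All Luxi animals were above all Shandong black animals, but L1 exceeded B1 by less than the SD of either breed. The log2 fold change was 0.51 (SE 0.22, 95% interval 0.00 to 1.02), with an adjusted limma p of 0.225. PEG10 (chromosome 4, 12063954 to 12076659, plus strand) was listed with 4 reference transcripts of 2 exons with the same ends, between which its reads could hardly be divided, so only the sum is given.

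SGCE, a sarcoglycan that is imprinted with PEG10, begins 186 bases away on the opposite strand. Its FPKM was 1.05, 1.22 and 0.584 in Shandong black and 2.39, 1.64 and 1.93 in Luxi animals, also without overlap. SGCE had a log2 fold change of 0.62 (SE 0.20), with an adjusted limma p of 0.133. The ratio of PEG10 to SGCE was 0.852, 0.577 and 1.32 in Shandong black and 0.380, 1.27 and 0.948 in Luxi animals, and the breeds overlapped (exact permutation p = 0.8).

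H19 is a long noncoding RNA transcribed next to IGF2, on the other parental copy, and a source of microRNAs that restrain growth. Its FPKM was 56.5, 28.7 and 53.7 in Shandong black animals and 23.6, 26.8 and 47.5 in Luxi animals. B2 lay with the lower Luxi animals and L3 with the higher Shandong black animals, so the breeds overlapped. The log2 fold change was -0.50 (SE 0.37, 95% interval -1.37 to 0.38), with an adjusted limma p of 0.463. All of its FPKM was on 1 reference transcript of 5 exons (chromosome 29, 49510998 to 49513370, plus strand), with 858 to 1704 kb of aligned sequence per animal.

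IGF2, the fetal growth factor that shares control elements with H19 and ends 88.5 kb from it, had an FPKM of 15.7, 14.3 and 17.1 in Shandong black and 47.0, 23.2 and 34.4 in Luxi animals. Each Luxi animal was higher, with a log2 fold change of 1.05 (SE 0.28) and an adjusted limma p of 0.0965 (0.81 and 0.0700 without L1). The ratio of IGF2 to H19 was 0.278, 0.498 and 0.319 in Shandong black and 1.99, 0.865 and 0.725 in Luxi animals. The breeds did not overlap in this ratio (means 0.365 ± 0.117 and 1.19 ± 0.695, SD, n = 3, exact permutation p = 0.1, the smallest possible). L1 had the highest ratio and also the highest summed FPKM of 5 pericyte and smooth muscle markers, 303. That sum was 52.0 in the lowest Luxi animal and 83.4 to 100.4 in the Shandong black animals. The part of vascular tissue in this ratio was not tested.

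CDKN1C encodes the cyclin-dependent kinase inhibitor p57, which acts when myoblasts leave the cell cycle. Its FPKM was 5.98, 2.49 and 6.44 in Shandong black animals and 3.60, 2.37 and 3.11 in Luxi animals. B1 and B3 were above all Luxi animals and B2 was among them. The log2 fold change was -0.50 (SE 0.31), with an adjusted limma p of 0.379. The gene (chromosome 29, 48728495 to 48730501, plus strand) had 1 reference transcript of 4 exons and no added assembled one. PHLDA2, a placental growth restrainer 37.9 kb away in the same cluster, was too low to test, at 0.335, 1.01 and 0.233 in Shandong black animals and listed at 0 in all 3 Luxi animals.

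PLAGL1 encodes a zinc finger protein that regulates other genes of the imprinted network. Its FPKM was 3.27, 2.60 and 2.45 in Shandong black and 1.42, 1.96 and 3.003 in Luxi animals. L3 lay above B2 and B3, so the breeds overlapped, with a log2 fold change of -0.30 (SE 0.22) and an adjusted limma p of 0.458. All of its FPKM was on reference transcripts (chromosome 9, 81363243 to 81459984, minus strand), and one form of 6 exons held 50.5% of the Shandong black total.

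NNAT encodes neuronatin, a small membrane protein of neurons and endocrine cells that fat cells also make. Its FPKM was 0.254, 3.24 and 1.63 in Shandong black animals and 0, 0.315 and 0.135 in Luxi animals. B2 and B3 were above every Luxi animal, while B1 lay between L3 and L2. The log2 fold change was -1.07 (SE 0.42, 95% interval -2.05 to -0.10), the lowest among the members, with an unadjusted limma p of 0.0349 and an adjusted limma p of 0.192. The value of L2 came from a single-exon assembled transcript, and on reference transcripts alone the Luxi animals were at 0, 0 and 0.135, all below the Shandong black animals. The depth behind NNAT was small, with 0 to 58.6 kb of aligned sequence per animal.

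NNAT (chromosome 13, 66465154 to 66467548, plus strand) lies inside BLCAP, which runs on the opposite strand. BLCAP had an FPKM of 5.71, 7.19 and 6.98 in Shandong black and 7.02, 5.96 and 10.6 in Luxi animals, with overlap and a log2 fold change of 0.19 (SE 0.23). The summed FPKM of fat cell markers was lower in Luxi cattle, as was the fitted value of NNAT. S100B, a protein of glia that fat cells also make, had an FPKM of 118.4, 46.8 and 91.5 in Shandong black and 26.6, 5.76 and 21.2 in Luxi animals, with every Luxi animal below (log2 fold change -2.33, SE 0.58, adjusted limma p 0.0826). The part of fat or nerve tissue in the values of NNAT was not tested.

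MEG3 is a long noncoding RNA of the maternal copy of the DLK1-MEG3 cluster. Its FPKM was 0.983, 1.70 and 1.98 in Shandong black and 4.87, 0.686 and 1.58 in Luxi animals. L1 held the highest and L2 the lowest of the 6 values, and the SD of log2(FPKM + 1) was 0.91 in Luxi cattle against a median of 0.31 over all genes tested. Its fitted log2 fold change was 0.23 (SE 0.43), with an adjusted limma p of 0.792. Its direction rested on L1, without which it was -0.27.

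The level of MEG3 also depended on how its transcripts were summed, as the bars for the 4 ways of summing show. The reference annotation had 1 transcript of 5 exons (chromosome 21, 65727804 to 65746033, plus strand), which held 47.6% of the FPKM. On that transcript alone the FPKM was 0.983, 0.382 and 0.477 in Shandong black and 1.95, 0.498 and 1.33 in Luxi animals, and with assembled transcripts lying by 10% or more of their length on its exons it was 2.55, 1.70 and 2.62 against 11.4, 0.686 and 3.88. The breeds overlapped under each rule, while the highest animal exceeded the lowest 5.11 times under the first, 7.10 times under the 50% rule and 16.6 times under the 10% rule. In all 6 animals an unnamed transcript began 3533 to 3548 bases upstream of the reference start. In L1 assembled transcripts also ran 3726 bases past its reference end, and in L3 they ran 2373 bases past it.

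**Figure D5:**
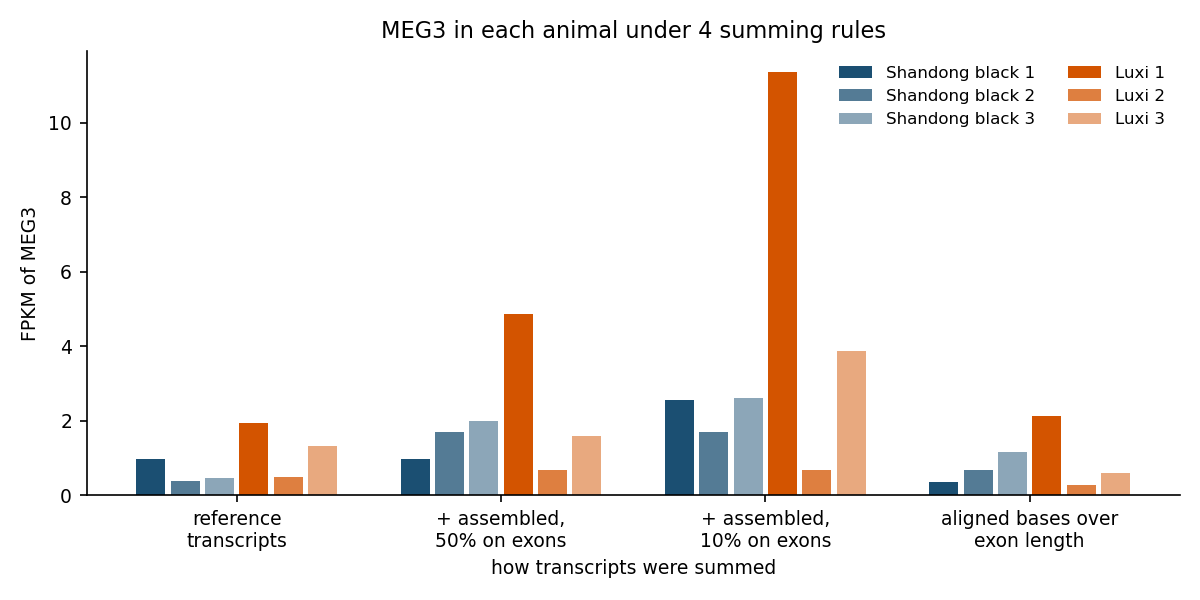
FPKM of MEG3 in each animal under 4 ways of assigning transcripts to the gene, with Shandong black animals in shades of blue and Luxi animals in shades of orange; each bar is 1 animal. L1 is the highest animal under all 4 ways, from 1.95 on reference transcripts to 11.4 with assembled transcripts at 10% overlap.

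DLK1, the paternally expressed partner of MEG3 and a membrane protein that restrains fat cell formation and is raised in callipyge muscle, was too low to test. Its FPKM was 0.909, 0 and 0.355 in Shandong black and 0.902, 0.201 and 0.561 in Luxi animals, with full overlap. The value of B1 was on an assembled transcript of 5 exons only. Between 0 and 22.1 kb of sequence aligned to DLK1 (chromosome 21, 65626346 to 65634498, plus strand) per animal, and no difference between the breeds could be read at that level. In the same cluster RTL1, the retrotransposon-derived protein that is raised together with DLK1 in callipyge sheep, did not exceed 0.00519 in any animal, and DIO3, which inactivates thyroid hormone, had an FPKM of 0.107 to 0.804.

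MEST is a paternally expressed hydrolase-like protein of mesoderm that rises in enlarging fat tissue of mice. Its FPKM was 1.44, 0.424 and 0.702 in Shandong black and 1.58, 1.02 and 1.63 in Luxi animals. B1 lay above L2, so the breeds overlapped, and the log2 fold change was 0.40 (SE 0.24) with an adjusted limma p of 0.367. The 2 highest animals of Luxi cattle, L1 and L3, and B1 had MEST (chromosome 4, 94245517 to 94263783, plus strand) mainly on the reference transcript with the most downstream start, at 1.37, 1.63 and 1.37. L2 had all of its MEST on the form with the most upstream start, at 1.02, and B2 had all of it on assembled transcripts, at 0.424. COPG2, the next gene, which ends 221 bases away on the opposite strand, had a log2 fold change of 0.06 (SE 0.27).

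PEG3, a zinc finger protein of the paternal copy that is active in muscle stem cells, was the lowest member over the 6 animals, though NNAT was lower in Luxi cattle, and it was not tested. Its FPKM was 0.110, 0.333 and 0 in Shandong black and 0.377, 0.533 and 0.0608 in Luxi animals, with overlap. In B2, L1 and L2 nearly all or all of it was on assembled transcripts, and 13.03% of the FPKM of PEG3 was on its reference transcript (chromosome 18, 64099192 to 64122748, minus strand).

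Among other genes known to be imprinted in mammals, 33 of the 42 listed were named in the files and 20 were tested. None was called (limma, 5 with an unadjusted p under 0.05, adjusted p under 0.05 in none), 12 were higher and 8 lower in Luxi cattle, and the median log2 fold change was 0.06. Over all genes tested 21.9% had such a p, 62.6% were higher in Luxi cattle and the median was 0.13, so these counts were near the background. The breeds did not overlap in 6 of the 20, with Luxi animals above in 3 and below in 3, where the shares over all genes were 20.0% and 9.10%. Apart from IGF2 and SGCE, every Luxi animal was above every Shandong black animal for ZFAT, a transcription factor (log2 fold change 0.57, SE 0.18). SGCE and ZFAT passed the filter only through Luxi cattle, and GATM, given next, only through Shandong black cattle. Every Luxi animal was below for INPP5F, an inositol phosphatase that acts on phosphoinositide signalling (log2 fold change -0.995, SE 0.27, adjusted limma p 0.0965, but -0.39 and 0.471 on reference transcripts, which held 55.7% of its FPKM), for GATM, the first enzyme of creatine synthesis (-0.79, SE 0.26), and for PON2, a lactonase (-0.46, SE 0.23, and -0.22 without L1). Among those too low to test, CALCR, MAGEL2 and KLF14 had each Luxi animal above each Shandong black animal, and PHLDA2 had each below. The FPKM of CALCR, MAGEL2 and KLF14 was 0.592 to 1.13, 0.110 to 0.205 and 0.0203 to 0.0830 in Luxi cattle. In Shandong black cattle it was 0.211 to 0.352, 0.00464 to 0.0592 and 0.00608 to 0.0124. Only 10.4% of the FPKM of CALCR was on reference transcripts. The share of genes this low without overlap was not computed.

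Targets and partners of the members were read in the same way. Of 21 listed genes, 18 were named in the files and 15 were tested, none was called (limma, 2 with an unadjusted p under 0.05), 11 were higher and 4 lower in Luxi cattle, and the median log2 fold change was 0.20. Over all genes tested 21.9% had such a p, 62.6% were higher and the median was 0.13. Every Luxi animal was above every Shandong black animal in 3 of the 15 and below in 0, where the shares over all genes were 20.0% and 9.10%. IRS1 had an FPKM of 2.67, 2.88 and 3.07 in Shandong black and 4.57, 10.8 and 11.8 in Luxi animals, a log2 fold change of 1.29 (SE 0.32) with an adjusted limma p of 0.0816. Each Luxi animal was higher, and of 17 alternatives the one without L1, the lowest of the Luxi animals, passed the call (1.67, adjusted limma p 0.0115). NOTCH1, the receptor that DLK1 can bind, had a log2 fold change of 1.00 (SE 0.24, adjusted limma p 0.0752), and CDKN1B, the relative of CDKN1C known as p27, one of 0.31 (SE 0.18), both with every Luxi animal above. IGF1R, the receptor of IGF1 and IGF2, had one of -0.53 (SE 0.28) and overlapped, as did CDKN1A, CDK2, CDK4 and CCND1 of the cell cycle.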

How the data were processed

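Longissimus dorsi RNA from 6 animals (3 Shandong black and 3 Luxi cattle, 18 months) was sequenced, and 1 transcript file per animal was deposited. According to the study's methods the authors cleaned reads with fastp and aligned them to ARS-UCD1.2 with HISAT, and per the file headers the transcripts were assembled and quantified with StringTie 1.3.3b, guided by a reference annotation and with a strand option (rf). The library kit named in the labels is not stated to keep strand, so reads of overlapping genes on opposite strands (NNAT and BLCAP) may not be told apart. The deposited values are FPKM, TPM and read coverage per transcript, held with other annotation in one column. The FPKM values do not carry read counts, and the depth is therefore given as aligned bases (coverage times length).

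FPKM were summed per gene, over reference transcripts and same-strand unnamed transcripts lying by 50% or more of their length on the gene's exons. The reference transcripts held 64.4% to 73.7% of the FPKM of a library, added transcripts 4.18% to 7.72%, and 21.9% to 30.8% was left out. Genes reaching a mean FPKM of 1 in either breed were fitted with limma 3.58.1 (R 4.3.3) on log2(FPKM + 1), with breed as the only term and Benjamini-Hochberg adjustment over 9765 genes. Calls needed an adjusted p under 0.05 together with a change of 1 or more on the log2 scale. The fit called 249 genes, 152 higher and 97 lower in Luxi cattle. Single values were compared by exact two-sided permutation tests in Python 3.11.15 with scipy 1.17.1. Tested on simulated data of 9765 genes with 200 changed, the fit recovered 56.5% of changes of 1.5 and 93.0% of changes of 3 on the log2 scale. P-values measure the spread between these 6 animals.

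The text names all members, other imprinted genes of a fixed list where called, where the breeds did not overlap or where next to a member, and listed targets and partners. Marker genes stand only for their cell types, and part of one marker list is not reported here. The members and lists were chosen with earlier results of these data known. Alternatives were another pseudocount, other filters, TPM, other scalings, other transcript rules, a replicate block and leaving out each animal. Positions are those of the files. All 10 members matched by symbol in a RefSeq gene table of a later assembly, which was used for names only.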

Additional observations from a re-analysis of the deposited data

How the results depend on the processing

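No member and none of the other imprinted genes was called under any of the 19 alternatives. Of 127 alternative fits of the 8 members tested, 126 kept their direction and their side of the threshold. The exception was MEG3, at -0.27 without L1, and its values with 1 animal left out ran from -0.27 to 0.63. GRB10 stayed between 0.71 and 0.97 (adjusted limma p 0.0658 to 0.281), and NNAT between -2.57 and -0.98 (0.109 to 0.415), with no fit without B2, its highest animal, where it fell below the filter. Without B2, H19 was at -0.80, CDKN1C at -0.85 and MEST at 0.23; CDKN1C was at -0.31 without B3, MEST at 0.62 without B1, PLAGL1 at -0.49 without L3 and -0.13 without L1, and H19 at -0.79 without L3, -0.33 without B1 and -0.30 without L1. PEG10 had an adjusted limma p of 0.0419 without L1, at a log2 fold change of 0.72, which is under the size needed for a call. The number of genes called over the whole table, 249, depended on the settings: 65 with no filter on low values, 139 with a minimum mean FPKM of 5, 162 on reference transcripts only and 65 at a log2 fold change of at least 2. With 1 animal left out it ran from 3 (without B3) to 591 (without L1), with 15 without B1, 48 without L2 and 86 without L3. The split of calls higher and lower in Luxi cattle was 116 and 145 with size factors and 125 and 162 with quantile scaling, which moved the median of all genes from 0.13 to 0.02 and 0.00. Summing aligned bases over exon length was added after seeing the data. MEG3 and MEST did not reach the level needed for the test under it.

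Replicate numbers gave no known pairing. Animals of the same number deviated together with correlations of 0.0816 to 0.0905, under the limit of 0.1, although each animal correlated best with its own number. A fit with the replicate number as a block called 134 genes and no member. Depth limits DLK1, PEG3 and NNAT most, as few bases aligned to them. Breed and company of origin cannot be told apart with these samples.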

Other observations

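Several members carried transcripts that were not counted in their FPKM. Within GRB10, unnamed same-strand transcripts with less than 50% of their bases on its exons, 50 of 57 of them single-exon, summed to an FPKM of 0, 5.06 and 0.429 in B1, B2 and B3 and to 17.95, 4.605 and 6.569 in L1, L2 and L3. The breeds overlapped in this sum, and L1 held the highest value and the largest number of such transcripts, 24. On the opposite strand of GRB10 the sum was 1.85, 1.24 and 0.995 in Shandong black and 2.29, 0.143 and 0.996 in Luxi animals, with 28 of 31 transcripts single-exon. On the opposite strand of PLAGL1, unnamed transcripts were listed at 0.918, 0.719 and 0.248 in B1, B2 and B3, and none was listed in the 3 Luxi animals. Of these transcripts 6 of 7 were single-exon, and how often such a split occurs at other genes was not computed. Since the kit is not stated to keep strand, the strand of these transcripts and of those at GRB10 is uncertain. H19, DLK1, PEG10, MEST and CDKN1C had no uncounted transcript on their own strand in any animal. The summed FPKM of markers of satellite cells and new fibres overlapped between the breeds, at 77.8 to 149 in Shandong black and 22.7 to 444 in Luxi animals. MYH8, from 0.0140 in L1 to 415 in L2, made up most of the highest sum. None of the 6 tested was called (limma, 0 with an unadjusted p under 0.05), with MYOG at a log2 fold change of -1.99 (SE 0.90) and overlapping. MYH3, too low to test, had every Luxi animal below, at 1.04, 0.249 and 0.396 against 0.0706, 0 and 0.217. The sums of 4 macrophage markers were 4.61 to 6.38 and 4.04 to 7.91, again with no call.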
